A study of Homo sapiens with 12 samples.

Results

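A set of 10 genes of growth factor signalling was followed across 12 RNA-seq libraries of A375 melanoma cells: hepatocyte growth factor (HGF), its receptor MET, the MET adaptor GAB1, the inhibitors of HGF activation SPINT1 and SPINT2, and the receptors PDGFRA, PDGFRB, IGF1R, FGFR1 and KIT. They were taken by symbol from the deposited table, which held 56609 symbols, so the set was 10 of 56609. HGF was chosen by its measured values, the fall of its counts with the drug JQ1 in these same libraries, and the others by their known ties to it or as receptors of melanoma cells. HGF changes with JQ1 are therefore given as a description without a test, and HGF is left out of the counts of members that changed with JQ1. Its knockout comparisons use the same libraries, so their p-values are not independent of that choice.

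HGF is made as an inactive single chain. Serine proteases cut it into the active form, and the membrane inhibitors encoded by SPINT1 and SPINT2 hold those proteases back. Active HGF binds the receptor tyrosine kinase MET, which recruits GAB1 and passes the signal to the RAS-MAPK and PI3K pathways. HGF usually comes from stromal cells, and in BRAF-mutant melanoma it is known for sustaining growth when the mutant kinase is inhibited. The platelet-derived, insulin-like and fibroblast growth factor receptors feed the same pathways, and KIT is the stem cell factor receptor on which normal melanocytes depend.

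A375 is an established human melanoma line. The cells were either wild type or lacked MAPKAPK2, which encodes the protein kinase MK2 of the p38 stress pathway. Each genotype received 500 nM JQ1 or the solvent DMSO and was harvested after 48 h, which gave 4 groups of 3 replicates. JQ1 displaces BET bromodomain proteins from acetylated chromatin, and the series asked about resistance to such inhibitors. The labels do not state whether the knockout line is 1 clone or a pool, or whether replicates were separate cultures, so p-values measure the spread between these libraries, which may be technical.

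The libraries held 25316899 to 34594295 estimated counts, and 21698 genes passed the filter on low counts. Levels below are CPM, counts per 1000000 of the scaled library. Overlap between groups is given as a description, and the share of all genes without overlap was not counted. MAPKAPK2 averaged 89.6 CPM (DMSO) and 117 CPM (JQ1) in wild-type cells, against 12.4 and 14.4 CPM in the knockout. Knockout JQ1 replicate 3 stood apart: 4 noncoding RNAs (RMRP, RN7SL1, RN7SL2 and RN7SK) together took 14.6% of its counts, the highest share of any library, and its differences from the other replicates of its group, measured as chi-square per degree of freedom, were 23.8 and 25.1, against 3.21 to 7.05 for all other replicate pairs. Results that rest on it are given with and without it. Of the melanocyte markers, SOX10 averaged 437 CPM and MITF 43.1 CPM in wild-type DMSO, while PMEL averaged 0.513 CPM and MLANA 0.78 CPM. Pigment cell transcription factors were thus present and the melanosome genes PMEL and MLANA were low.

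Stretches within 250 bases upstream of a RefSeq start site are shown for 4 member genes. HGF, PDGFRB and SPINT1 had lower RNA with JQ1, and MET had higher RNA in wild-type cells. The stretches come from RefSeq windows of 250 bases before the start site (build GRCh38.p14). Each was cut to the longest part outside any exon of GENCODE release 29. They run 5′ to 3′ on the gene's strand, with CG dinucleotides in capitals. The HGF stretch does not reach the start-site end of its window (chr7:81770048-81770297). It lies inside the span that GENCODE gives for HGF (chr7:81699008-81770438). Those of PDGFRB, SPINT1 and MET lie outside the GENCODE spans of their genes. HGF lies on chromosome 7 (chr7:81770199-81770290, minus strand), PDGFRB on chromosome 5 (chr5:150155873-150156095, minus strand), SPINT1 on chromosome 15 (chr15:40843798-40844017, plus strand) and MET on chromosome 7 (chr7:116671946-116672195, plus strand).
HGF: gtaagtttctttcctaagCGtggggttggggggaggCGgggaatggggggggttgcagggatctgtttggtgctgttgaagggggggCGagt
PDGFRB: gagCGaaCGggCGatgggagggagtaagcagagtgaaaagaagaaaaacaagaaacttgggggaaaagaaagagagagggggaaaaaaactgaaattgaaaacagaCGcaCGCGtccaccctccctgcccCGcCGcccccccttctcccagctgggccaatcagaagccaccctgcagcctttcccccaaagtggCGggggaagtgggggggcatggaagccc
SPINT1: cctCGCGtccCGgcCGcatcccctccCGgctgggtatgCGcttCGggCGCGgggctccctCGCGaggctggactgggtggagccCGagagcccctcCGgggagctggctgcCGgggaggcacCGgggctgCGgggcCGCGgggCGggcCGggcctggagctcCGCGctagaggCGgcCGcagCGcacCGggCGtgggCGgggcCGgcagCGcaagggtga
MET: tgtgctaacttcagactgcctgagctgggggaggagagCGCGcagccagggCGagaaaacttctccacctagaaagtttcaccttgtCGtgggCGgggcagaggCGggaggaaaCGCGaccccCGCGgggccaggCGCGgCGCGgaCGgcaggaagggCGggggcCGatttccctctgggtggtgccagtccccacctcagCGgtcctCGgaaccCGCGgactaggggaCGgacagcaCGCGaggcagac
In the full windows, HGF had 6 CG dinucleotides, PDGFRB 9, MET 24 and the first SPINT1 start 35, against a median of 11 over 35116 RefSeq windows of the same length. Each window was searched on both strands for GGGCGG (held by 42.6% of all windows), TATAAA (10.7%), TGANTCA (6.57%), CCAAT (32.0%) and CANNTG (61.8%), and overlaps between motifs were allowed. The letters of none of these were found in the HGF window. The MET window held GGGCGG at 2 places and the first SPINT1 window at 3, and PDGFRB had 1 match each to GGGCGG and to CCAAT and also to CANNTG.

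HGF, the secreted ligand, was the member with the widest range between groups. Its level in wild-type DMSO was 23.9, 25.6 and 24.5 CPM in replicates 1 to 3. In wild-type JQ1 it was 0.44, 0.408 and 0.444 CPM, from 11 to 15 counts per library. All JQ1 libraries lay far below all DMSO libraries, and the replicates of each group lay close together. The fitted log2 difference was -5.82 (SE 0.16, 95% interval -6.17 to -5.48, n = 3 per group), a 56.6-fold lower level. This SE was derived from the F statistic and falls below the counting error of the 40 summed JQ1 counts. The interval is therefore too narrow.

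In knockout cells the pattern recurred from a slightly lower start. HGF was 18.2, 21.3 and 15.1 CPM in DMSO and 0.419, 0.365 and 0.443 CPM in JQ1, from 9 to 13.6 counts per library. The groups did not overlap, and the log2 difference was -5.45 (SE 0.17, 95% interval -5.81 to -5.09), or 43.8-fold. With 34 summed JQ1 counts, this interval is too narrow in the same way. The difference between the genotypes' JQ1 changes was 0.37 on the log2 scale (SE 0.30), and it too is given without a test. In JQ1 the genotypes had means of 0.431 ± 0.0194 CPM and 0.409 ± 0.0399 CPM (SD, n = 3), which overlapped. The knockout against wild type value there was -0.07 (95% interval -0.67 to 0.53, adjusted p = 0.943, Benjamini-Hochberg adjusted, from edgeR's quasi-likelihood test, as are the adjusted p-values below).

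**Figure D1:**
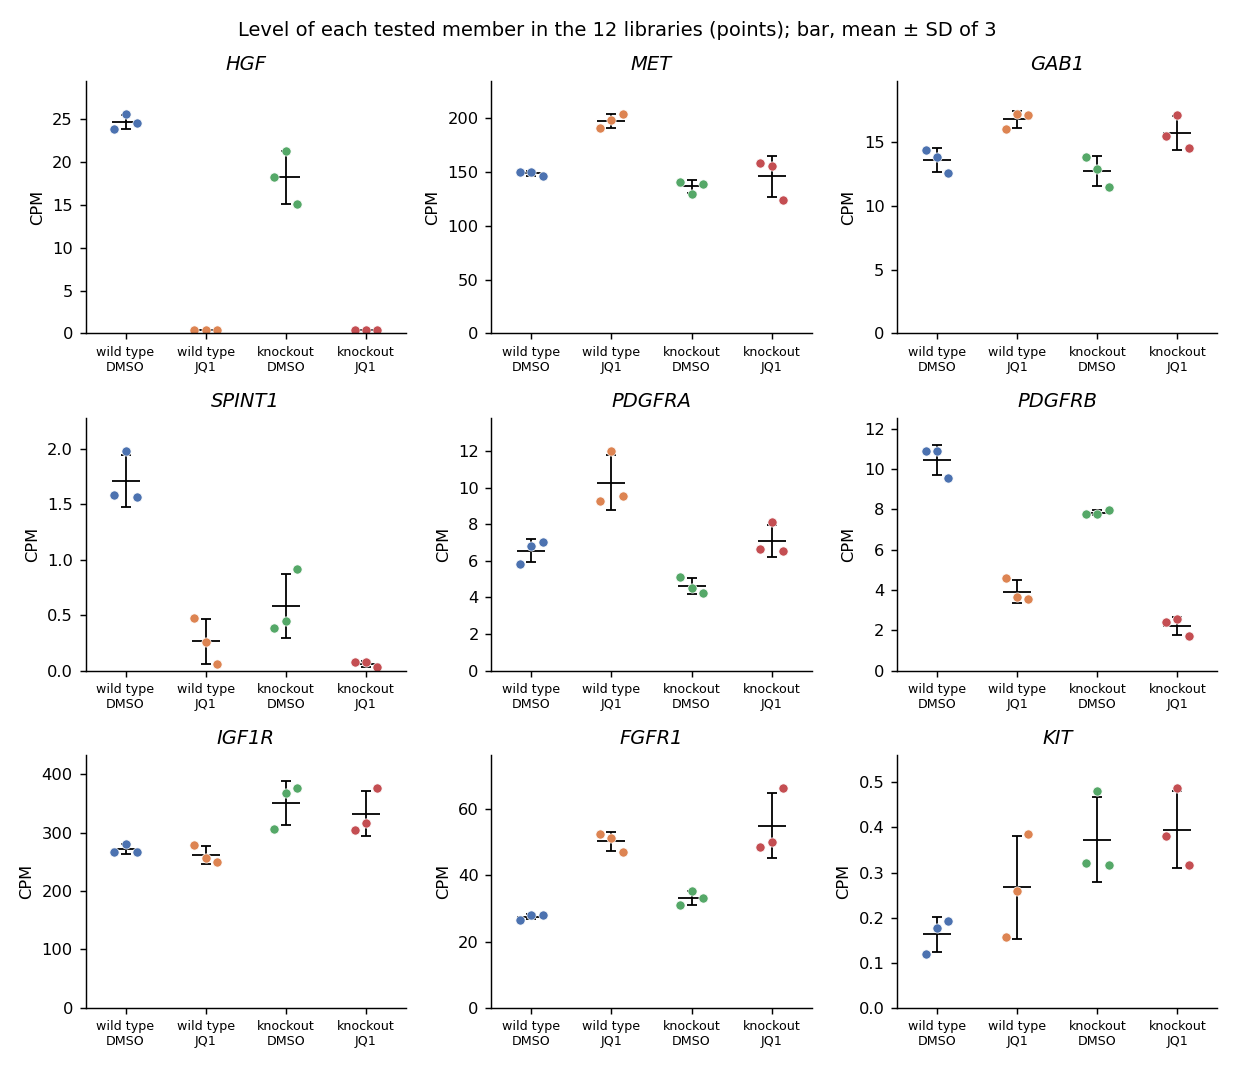
Level of the 9 tested members in each of the 12 libraries (points, CPM, linear axes from 0) by genotype and treatment, with the mean and SD of 3 replicates as bars. HGF lies between 15.1 and 25.6 CPM in the 6 DMSO libraries and between 0.365 and 0.444 CPM in the 6 JQ1 libraries, while MET is at 124 CPM or more in all 12.

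In DMSO, the knockout libraries had less HGF than the wild-type libraries. All 3 knockout values lay below all 3 wild-type values, with means of 18.2 ± 3.06 and 24.7 ± 0.894 CPM (SD, n = 3). The log2 difference was -0.44 (SE 0.10, adjusted p = 0.0173, edgeR). These DMSO libraries also entered the choice of HGF, so the p-value is not independent of that choice. The call was lost in 6 of 20 alternative analyses: adjusted p was 0.0751 without wild-type DMSO replicate 2, 0.055 without replicate 3, 0.0543 without knockout DMSO replicate 1, 0.0847 without its replicate 3, and 0.444 and 0.232 on the authors' normalized signal.

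Among the 21698 tested genes, HGF had the 16th lowest log2 fold change with JQ1 in wild-type cells and the 21st lowest in knockout cells. The genes with still lower values were scarce, with group means of at most 1.6 CPM in wild-type and 3.24 CPM in knockout cells. Among genes averaging at least 5 CPM in a compared group (11590 and 11523 genes), HGF was the lowest in both genotypes. HGF had been chosen for the size of its fall in these libraries, so its place restates that choice and is no test. The next was the lipid transporter gene ABCA6 at -5.19 in wild-type cells and LAD1, which encodes a basement membrane anchoring protein, at -4.57 in knockout cells.

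HGF is a usual product of fibroblasts, so fibroblast markers are given beside it. The 6 markers (COL1A1, COL1A2, COL3A1, DCN, LUM and PDGFRB, itself a member here) summed to 15.9 to 17.5 CPM with DMSO and 4.76 to 5.78 with JQ1 in wild-type libraries. In knockout libraries the sums were 12.9 to 14.4 and 3.29 to 4.02 CPM. PDGFRB alone averaged 10.4 (DMSO) and 3.92 CPM (JQ1) in wild-type cells and 7.84 and 2.22 CPM in knockout cells. The sums therefore largely restate the values of this member. Of the 6, at least 1 CPM on average was reached by 3 and 1 in wild-type and by 2 and 1 in knockout cells. LUM, which encodes the collagen-binding proteoglycan lumican, averaged 3.86 and 0.504 CPM in wild-type cells and 4.36 and 0.631 CPM in knockout cells, in the same order. The collagen gene COL1A2 was at 0 in every library outside wild-type DMSO, where it averaged 0.0946 CPM, and COL3A1 was at 0 in knockout JQ1. The part of these markers in the HGF values was not tested, and in bulk RNA fewer cells of a type and less RNA per cell cannot be told apart.

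The 5 genes whose profile was most like that of HGF were AC008163.1, ABCA6, RASL12, SERPINF1 and MGAT3. Likeness was the root-mean-square difference in log2 CPM over the 12 libraries, after each gene was set to its wild-type DMSO mean, among 16346 genes averaging at least 1 CPM in a group. It was 0.63 for AC008163.1, 0.66 for ABCA6, 1.12 for RASL12, 1.21 for SERPINF1 and 1.27 for MGAT3. On that scale the group means of AC008163.1 were -4.64 (wild-type JQ1), -0.30 (knockout DMSO) and -5.40 (knockout JQ1), and those of HGF were -5.64, -0.45 and -5.68. SERPINF1, which encodes the secreted factor PEDF, differed in knockout DMSO, where it stood at -1.97 on that scale, against -0.30 for AC008163.1 and -0.64 for MGAT3.

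**Figure D2:**
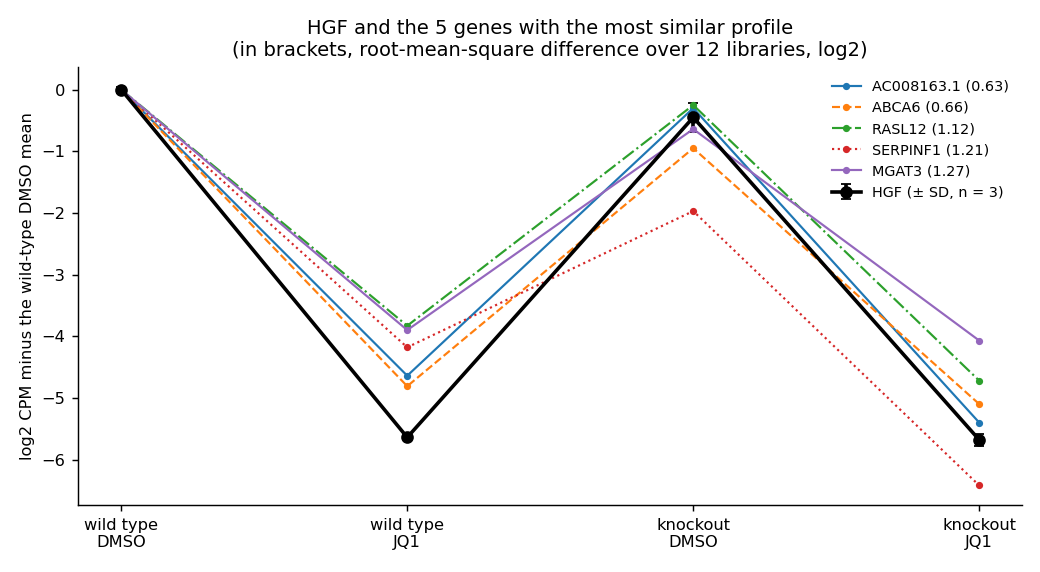
Mean log2 CPM of HGF and its 5 most similar genes in the 4 groups, relative to wild-type DMSO (vertical axis, log2 units; HGF with its SD, n = 3). All 6 lines drop in both JQ1 groups, and SERPINF1 is also low in knockout DMSO (-1.97).

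The most similar gene was also a neighbour of HGF. AC008163.1, annotated as a transcribed unitary pseudogene, lies on chromosome 7 (chr7:81489204-81691406, GRCh38, minus strand), 7601 bases beyond the 3′ end of HGF (chr7:81699008-81770438) and on the same strand. Its estimated counts were 140.7, 133.1 and 116.7 in wild-type DMSO and 5, 1 and 4 in wild-type JQ1. They were 108.8, 93.3 and 86.1 in knockout DMSO and 1, 1 and 0 in knockout JQ1. Every JQ1 library was thus far below every DMSO library. From summed counts, DMSO was 36.9-fold above JQ1 in wild-type cells (exact 95% interval 19.8 to 77.5) and 134-fold above it in knockout cells (36.7 to 1110); these intervals cover counting error only. Because AC008163.1 was picked for its likeness, these values carry no test, and how reads were divided between neighbouring annotations is not given in the sources used here.

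The wider region did not share the size of the HGF change. Within 2500 kb on either side, 10 genes besides HGF were tested. With JQ1, 3 were higher and 3 lower in wild-type cells, and 1 was higher and 5 lower in knockout cells. Over all tested genes, 16.9% were higher and 16.2% lower in wild-type cells, and 16.7% and 17.8% in knockout cells. AC008163.1 is among the lower ones in both genotypes, but it was picked for its likeness to HGF and tests nothing here. SEMA3E, the gene of a secreted guidance factor, had log2 changes of -1.67 (SE 0.17) and -1.78 (SE 0.18) in wild-type and knockout cells. Its relative SEMA3C, on the other side of HGF, had changes of 0.59 (SE 0.10) and 0.47 (SE 0.11). CACNA2D1, a calcium channel subunit gene and the nearest tested protein-coding gene upstream of HGF, was at -0.23 (adjusted p = 0.06, edgeR) in wild-type cells and fell by 0.42 (adjusted p = 0.00251, edgeR) in knockout cells.

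**Figure D3:**
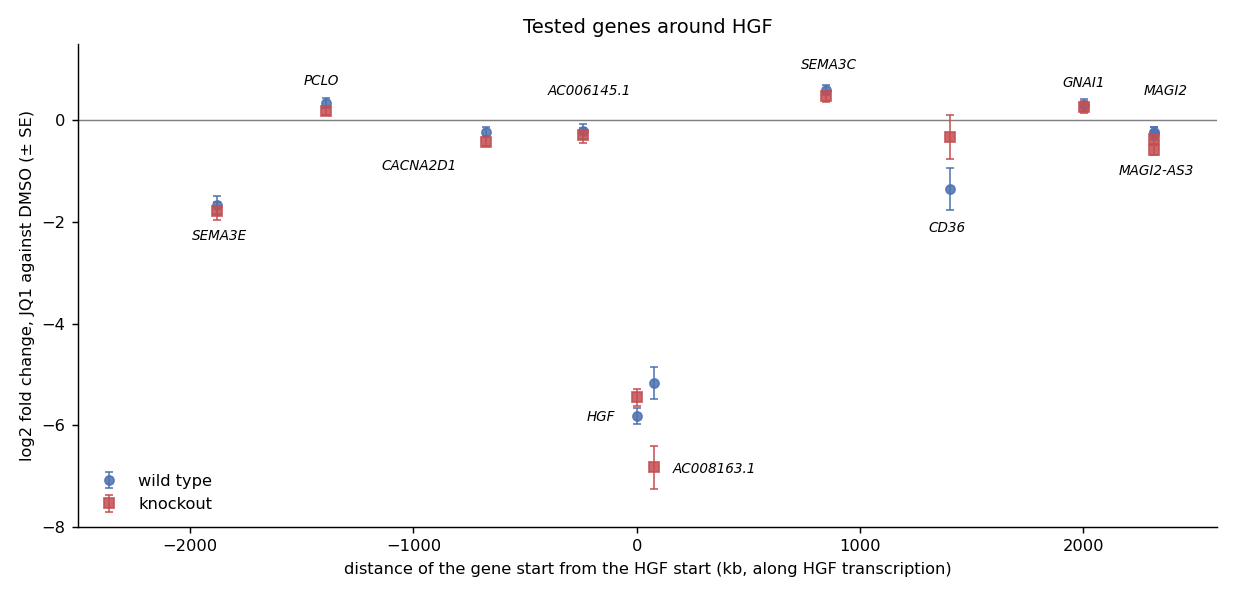
Log2 fold change with JQ1 (± SE; circles, wild type; squares, knockout) of HGF and the 10 other tested genes within 2500 kb, by distance of the gene start from the HGF start along the direction of HGF transcription. HGF (-5.82 and -5.45) and AC008163.1 (-5.17 and -6.83) lie far below the others, of which SEMA3E is the lowest. For HGF and AC008163.1 the SE bars are shorter than the counting error.

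The authors' normalized signal treated HGF unlike most genes with ample counts. Each of its values is a rounded count scaled by its own factor, which differs between genes and between libraries. Relative to each library's median, the factor for HGF ran from 0.797 to 1.97, a span of 2.47-fold. This exceeded the span of 99.9% of 12490 genes, whose median span was 1.03-fold. Those genes had more counts in every library than HGF had in any JQ1 library. Spans of genes as scarce as HGF with JQ1 were not compared. In knockout JQ1 replicates 1 to 3, HGF counts of 11, 9 and 13.6 became signals of 15.9, 8.02 and 6.75, so the library with the most counts had the lowest signal. For MET the factor ran only from 0.962 to 1.03. How the factor was derived is not given in the sources used here.

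The receptor MET was more abundant per kilobase than its ligand in every group and moved the other way in wild-type cells. It was at 150, 150 and 146 CPM in wild-type DMSO and 191, 198 and 204 CPM in wild-type JQ1. The groups did not overlap, and MET rose by 0.41 (log2, SE 0.08, adjusted p = 0.000779, edgeR). In knockout cells MET was at 141, 130 and 139 CPM in DMSO and 158, 156 and 124 CPM in JQ1. The groups overlapped because of JQ1 replicate 3, and the log2 difference was 0.09 (95% interval -0.07 to 0.26, adjusted p = 0.397, edgeR). Without that library it was 0.20 and passed the threshold (adjusted p = 0.00553, edgeR).

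GAB1, the adaptor docked on activated MET, was at 12.6 to 14.4 CPM in wild-type DMSO and 16 to 17.2 CPM in wild-type JQ1. It rose by 0.30 in wild-type cells (SE 0.09, adjusted p = 0.0213, edgeR) and by 0.30 in knockout cells (SE 0.09, adjusted p = 0.0226, edgeR), where levels went from 11.5 to 13.8 CPM to 14.5 to 17.1 CPM. Neither pair of groups overlapped. These calls were the least firm among the members' JQ1 responses. Under scaling by library totals the changes were 0.17 (adjusted p = 0.194) and 0.19 (adjusted p = 0.171). The wild-type call was also lost without wild-type DMSO replicate 3 (adjusted p = 0.0973), JQ1 replicate 2 (0.0709) or JQ1 replicate 3 (0.0592). The knockout call was lost without knockout DMSO replicate 2 (adjusted p = 0.0554), DMSO replicate 3 (0.106) or JQ1 replicate 2 (0.0937), with no filter on low counts (0.051) and when only the groups compared were fitted (0.0785).

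SPINT1, the gene of the HGF activator inhibitor HAI-1, was scarce in every group. Its level was 1.58, 1.98 and 1.57 CPM in wild-type DMSO and 0.471, 0.26 and 0.0592 CPM in wild-type JQ1. The groups did not overlap, although the JQ1 replicates spread widely, and SPINT1 fell by 2.69 (log2, SE 0.45, adjusted p = 0.000294, edgeR). In knockout cells the values were 0.385, 0.446 and 0.913 CPM in DMSO and 0.0762, 0.0812 and 0.0317 CPM in JQ1. The JQ1 libraries held 1.1 to 1.6 estimated counts each, below all DMSO libraries. SPINT1 fell there by 3.16 (SE 0.67, adjusted p = 0.00195, edgeR), and from 51 and 5 summed counts the DMSO level was 9.47-fold above the JQ1 level (exact 95% interval 3.8 to 30.4, counting error only). Both falls passed the threshold under every alternative, but their size moved. The wild-type value was -3.46 without wild-type JQ1 replicate 1, and the knockout value was -2.81 without knockout JQ1 replicate 3. With limma on the authors' signal and a pseudocount of 10 the values were -1.77 in wild-type and -1.16 in knockout cells.

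SPINT2, the gene of the related inhibitor HAI-2, had 0 or 1 count per library and was not tested. The limit that a count of 0 allows, 3 counts, corresponds to 0.0824 to 0.122 CPM in a library and to 0.0363 CPM over the knockout JQ1 libraries together. A difference between groups was not detectable at this depth.

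The other genes of HGF activation were measured from a list of 14, of which 8 besides HGF were tested, SPINT1 included. With JQ1, 1 of the 8 was higher and 2 were lower in each genotype, beside 16.9% higher and 16.2% lower over all genes in wild-type cells and 16.7% and 17.8% in knockout cells. The median log2 change of the 8 was 0.05 in wild-type and -0.34 in knockout cells, against -0.03 and 0 over all genes. PLAT, which encodes tissue plasminogen activator, rose from 107 to 196 CPM in wild-type cells (log2 0.87, SE 0.05, adjusted p = 7.9e-09, edgeR) and from 131 to 226 CPM in knockout cells (0.78, SE 0.05). HPN, the gene of hepsin, a protease able to cut the HGF precursor, fell from 2.34 to 0.861 CPM in wild-type cells (log2 -1.45, SE 0.26, adjusted p = 0.000563, edgeR) and was at -0.68 in knockout cells (adjusted p = 0.0528, edgeR). SERPINA5, which encodes a serpin that inhibits the HGF activator, fell from 31 to 24.1 CPM in knockout cells (-0.36, SE 0.07, adjusted p = 0.000648, edgeR) and was at -0.09 in wild-type cells (adjusted p = 0.344, edgeR).

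The platelet-derived growth factor receptors moved in opposite directions with JQ1. PDGFRA was at 5.84, 6.83 and 7.01 CPM in wild-type DMSO and 9.26, 12 and 9.53 CPM in wild-type JQ1, with no overlap. It rose by 0.64 in wild-type cells (log2, SE 0.13, adjusted p = 0.00161, edgeR). In knockout cells it went from 4.25 to 5.13 CPM in DMSO to 6.52 to 8.12 CPM in JQ1, a rise of 0.61 (SE 0.14, adjusted p = 0.00314, edgeR).

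PDGFRB was at 10.9, 10.9 and 9.57 CPM in wild-type DMSO and 4.59, 3.64 and 3.55 CPM in wild-type JQ1. All JQ1 values lay below all DMSO values, and PDGFRB fell by 1.41 (log2, SE 0.14, adjusted p = 2.24e-06, edgeR). In knockout cells it was at 7.79, 7.76 and 7.97 CPM in DMSO and 2.4, 2.56 and 1.71 CPM in JQ1. It fell there by 1.83 (SE 0.15, adjusted p = 3.63e-07, edgeR), again with no overlap. Without knockout JQ1 replicate 3 the log2 change was -1.66.

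The balance between both receptors turned over. Per kilobase of merged exons, PDGFRA stood at 0.393 to 0.537 of PDGFRB in wild-type DMSO and 0.391 to 0.483 in knockout DMSO. In JQ1 the ratio was 1.48 to 2.42 in wild-type and 2.04 to 2.8 in knockout libraries. PDGFRB was thus the more abundant in all 6 DMSO libraries and PDGFRA in all 6 JQ1 libraries. The genes with the profile most like PDGFRB were RAB3IL1, ABCC2, CLEC2B, PLEKHA2 and MAOA, with root-mean-square differences from 0.17 to 0.20 in log2 CPM over the 12 libraries.

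FGFR1, a fibroblast growth factor receptor, was at 26.6, 28.1 and 27.9 CPM in wild-type DMSO and 52.5, 51.3 and 47.1 CPM in wild-type JQ1. It rose by 0.87 (log2, SE 0.10, adjusted p = 1.36e-05, edgeR), with no overlap. In knockout cells the values were 31.1, 35.2 and 33 CPM in DMSO and 48.5, 50.2 and 66.3 CPM in JQ1, the highest again being replicate 3. The rise was 0.74 (SE 0.10, adjusted p = 5.26e-05, edgeR) and 0.58 without that library.

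IGF1R, the insulin-like growth factor 1 receptor, had 249 to 281 CPM in the wild-type libraries and 305 to 376 CPM in the knockout libraries. It did not pass the test for JQ1 in wild-type cells (log2 -0.05, 95% interval -0.23 to 0.13, adjusted p = 0.697, edgeR) or in knockout cells (-0.08, interval -0.26 to 0.11, adjusted p = 0.544, edgeR). The bound farthest from 0 was -0.26, smaller in size than the fitted JQ1 change of each of the 6 members called in wild-type cells.

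KIT was at the edge of detection, with 4 to 14 counts per library. Its levels were 0.119, 0.177 and 0.192 CPM in wild-type DMSO and 0.157, 0.26 and 0.385 CPM in wild-type JQ1. They were 0.321, 0.481 and 0.316 CPM in knockout DMSO and 0.381, 0.487 and 0.317 CPM in knockout JQ1. In DMSO every knockout library lay above every wild-type library, but no contrast passed the test. The knockout value in DMSO was 1.17 (95% interval 0.25 to 2.10, adjusted p = 0.131, edgeR), and the JQ1 values were 0.71 (-0.25 to 1.67) and 0.07 (-0.77 to 0.91).

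Counted together, 6 of the 8 tested members other than HGF changed with JQ1 in wild-type cells, against 33.1% of all tested genes. MET, GAB1, PDGFRA and FGFR1 rose (16.9% of all genes rose) and SPINT1 and PDGFRB fell (16.2% fell). In knockout cells 5 of 8 changed, against 34.4% of all genes: GAB1, PDGFRA and FGFR1 rose (16.7%) and SPINT1 and PDGFRB fell (17.8%). Without knockout JQ1 replicate 3 the count was 6. The members were chosen with earlier results of these libraries known, so these shares describe the set and do not test it.

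**Figure D4:**
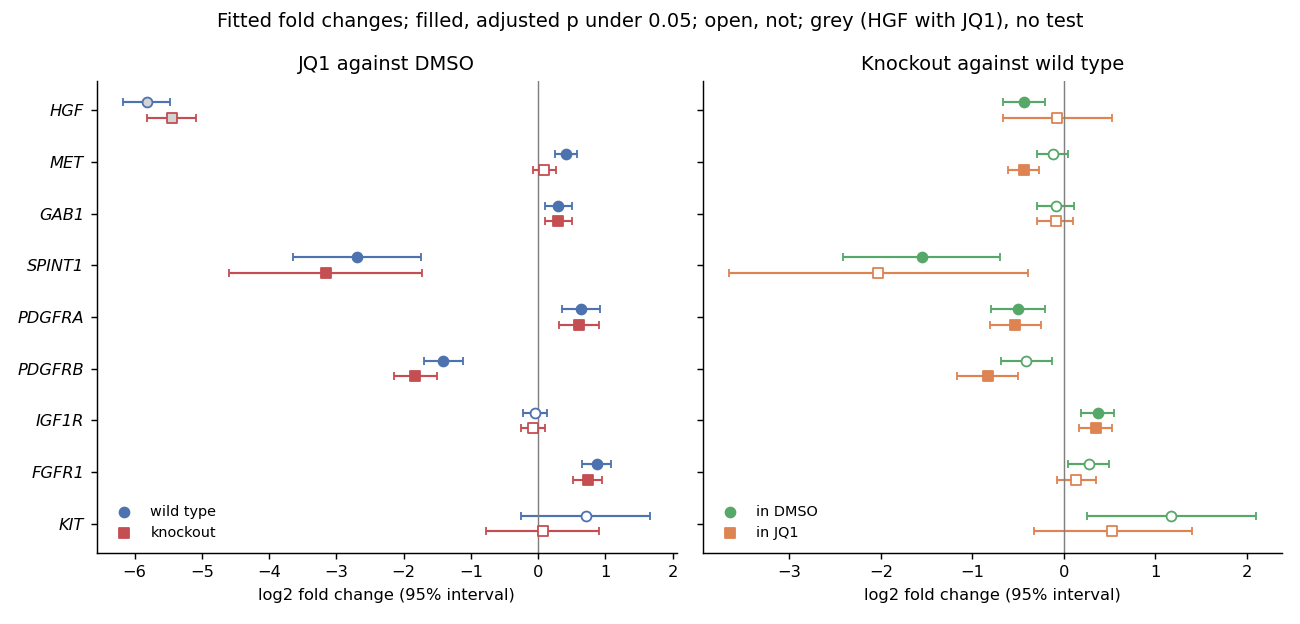
Fitted log2 fold changes with 95% intervals of the 9 tested members, for JQ1 against DMSO in each genotype (left) and knockout against wild type in each treatment (right; the horizontal scales differ). Filled symbols passed an adjusted p of 0.05, open ones did not, and the grey HGF symbols carry no test; PDGFRA and PDGFRB lie on opposite sides of 0 with JQ1, and IGF1R lies right of 0 only in the knockout panel. The HGF intervals with JQ1 are too narrow because its JQ1 counts are few.

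Loss of MAPKAPK2 in DMSO went with less RNA of HGF, SPINT1 and PDGFRA and more of IGF1R. These were 4 of the 9 tested members, 1 higher and 3 lower, against 7.92% of all tested genes (3.47% higher and 4.44% lower). HGF is counted among them although its choice drew on these libraries. IGF1R rose from 271 ± 8.49 to 350 ± 37.7 CPM (SD, n = 3), with a log2 change of 0.37 (SE 0.09, adjusted p = 0.014, edgeR). SPINT1 fell by 1.55 (SE 0.40, adjusted p = 0.0248, edgeR) and PDGFRA by 0.50 (SE 0.14, adjusted p = 0.0373, edgeR). In each case no knockout library overlapped a wild-type library, which also held for MET, PDGFRB, FGFR1 and KIT, members that did not pass. PDGFRB (-0.41, adjusted p = 0.0707) and FGFR1 (0.27, adjusted p = 0.153) did not pass, and both passed without knockout JQ1 replicate 3 (adjusted p = 0.0197 and 0.0104), which made the count 6. The same 2 members passed, for a count of 6, when only the DMSO groups were fitted (PDGFRB, adjusted p = 0.0152; FGFR1, 0.0157).

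Single libraries decided several of these calls. IGF1R missed the threshold without wild-type DMSO replicate 1 (adjusted p = 0.05) or knockout DMSO replicate 3 (0.0621). PDGFRA missed it without wild-type DMSO replicate 2 (0.13) or 3 (0.146) or knockout DMSO replicate 2 (0.126) or 3 (0.161). SPINT1 missed it without wild-type DMSO replicate 1 (0.0656), 2 (0.105) or 3 (0.0626) and without knockout DMSO replicate 1 (0.107) or 2 (0.107). On the authors' signal PDGFRA also missed it (adjusted p = 0.0784 and 0.0822, limma, pseudocounts of 1 and 10). SPINT1 missed it there with the pseudocount of 1 (0.138, limma). All of these calls kept their direction.

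In JQ1, knockout cells had less MET, PDGFRA and PDGFRB and more IGF1R than wild-type cells. These were again 4 of 9 members, 1 higher and 3 lower, against 8.57% of all genes (3.01% higher and 5.56% lower). MET was at 146 ± 19.0 CPM against 198 ± 6.60 CPM (SD, n = 3) and fell by 0.44 (log2, SE 0.08, adjusted p = 0.002, edgeR), or by 0.34 without knockout JQ1 replicate 3 (adjusted p = 0.000385, edgeR). PDGFRB fell by 0.83 (SE 0.16, adjusted p = 0.00335, edgeR) and by 0.67 without that library. PDGFRA fell by 0.53 (SE 0.13, adjusted p = 0.021, edgeR). IGF1R rose by 0.35 (SE 0.09, adjusted p = 0.0206, edgeR), or by 0.25 without knockout JQ1 replicate 3 (adjusted p = 0.0443, edgeR). SPINT1 was at -2.03 (adjusted p = 0.132, edgeR) and passed without wild-type JQ1 replicate 3 (-2.53, adjusted p = 0.0294, edgeR).

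Here too some calls rested on single libraries. PDGFRA missed the threshold without wild-type JQ1 replicate 2 (adjusted p = 0.114) or knockout JQ1 replicate 1 (0.0759) or 3 (0.051). Other settings also lost the PDGFRA call. Adjusted p was 0.0714 (edgeR) when only the JQ1 groups were fitted. On the authors' signal it was 0.0603 and 0.0633 (limma, pseudocounts of 1 and 10). IGF1R missed it without wild-type JQ1 replicate 2 (0.0821) or 3 (0.0892). Both knockout comparisons use different libraries, but each shares its groups with the JQ1 comparisons.

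No member's JQ1 response differed between the genotypes past the threshold. The count was 0 of 8 by edgeR's quasi-likelihood test, against 0.134% of all genes. By DESeq2 it was also 0, against 154 of the 14130 genes that received an adjusted p there. At an unadjusted p under 0.05 there was 1, MET, whose response was lower by 0.32 in knockout cells (log2, SE 0.11, adjusted p = 0.423, edgeR) and lower by 0.22 without knockout JQ1 replicate 3. PDGFRB had a difference of -0.42 (95% interval -0.86 to 0.02, adjusted p = 0.617, edgeR). For SPINT1 (-2.25 to 1.31) and KIT (-1.91 to 0.63) the 95% intervals were too wide to place the responses near each other.

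Levels can be ordered between genes only per length, here as CPM per kilobase of merged exons. In wild-type DMSO the means were 21.1 for MET, 19.4 for IGF1R, 2.51 for HGF, 1.99 for FGFR1, 1.46 for PDGFRB, 1.34 for GAB1, 0.674 for PDGFRA, 0.483 for SPINT1, 0.0293 for KIT and 0.00367 for SPINT2. Neighbours in this order did not overlap over replicates, except PDGFRB and GAB1. HGF and FGFR1 swap places when the longest coding transcript is taken as the length. MET was thus several times more abundant per length than its ligand before JQ1.

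In wild-type JQ1 the order was MET (28.1), IGF1R (18.8), FGFR1 (3.63), GAB1 (1.66), PDGFRA (1.05), PDGFRB (0.55), SPINT1 (0.0743), KIT (0.048), HGF (0.0439) and SPINT2 (0.0019), in the same unit. SPINT1, KIT and HGF overlapped, so the ligand had moved from the third place to the range of KIT. In knockout cells IGF1R led, at 25.1 in DMSO and 23.8 in JQ1, ahead of MET at 19.4 and 20.7; in JQ1 their replicates overlapped.

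Around the members, the partners of MET moved both ways with JQ1. Of 15 tested genes for MET, its relatives and co-receptors (MET included), 6 were higher and 3 lower in wild-type cells. In knockout cells 2 were higher and 3 lower. Over all tested genes, 16.9% were higher and 16.2% lower in wild-type cells, and 16.7% and 17.8% in knockout cells. The medians of the list were 0.18 and 0.09, against -0.03 and 0 over all genes. PLXNB1, the semaphorin receptor that pairs with MET, fell from 51 to 18.7 CPM (log2 -1.45, SE 0.17) in wild-type and from 36 to 11.4 CPM (-1.65, SE 0.18) in knockout cells. The co-receptor gene NRP2 rose by 0.39 and 0.38 (SE 0.06 each). NRP1, its relative, rose by 0.47 with JQ1 in wild-type cells, was at 0.14 in knockout cells (adjusted p = 0.0708, edgeR) and was lower in knockout than in wild-type cells, by 0.75 in DMSO and 1.08 in JQ1 (SE 0.06 each, adjusted p = 1.06e-06 and 1.81e-08, edgeR). PTPRB, a receptor-type phosphatase gene, fell by 3.53 (SE 0.32) from 2.41 to 0.204 CPM in wild-type cells and by 1.89 (SE 0.38) from 0.733 to 0.194 CPM in knockout cells. The integrin gene ITGB4 fell by 0.69 (SE 0.16) and 0.98 (SE 0.18).

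Of 26 adaptors and effectors downstream of MET, all tested and GAB1 included, 8 were higher and 5 lower with JQ1 in wild-type cells. In knockout cells 9 were higher and 7 lower. Shares over all genes, higher and lower, were 16.9% and 16.2% in wild-type cells and 16.7% and 17.8% in knockout cells. The medians of the 26 genes, -0.01 and -0.05, were close to those of all genes. PIK3R1, a regulatory subunit of PI3K, rose by 0.72 and 0.53 (SE 0.07 each). The kinase gene SRC fell by 0.77 and 0.99 (SE 0.10 each). STAT3 rose by 0.45 and 0.33 (SE 0.07 each), and SPRY1, a feedback inhibitor gene, fell by 0.68 and 0.53 (SE 0.09 each). SPRY4, another feedback inhibitor, was lower in knockout cells by 0.41 in DMSO and 0.50 in JQ1 (SE 0.07 each).

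The ligand list moved both ways with JQ1. Besides HGF, 13 of its genes were tested. Of these, 4 were higher and 6 lower in wild-type cells and 3 higher and 6 lower in knockout cells, with medians of -0.50 and -0.18. Over all tested genes the shares were 16.9% and 16.2%, and 16.7% and 17.8%. FGF11, FGF12, FGF13 and FGF14 are in the list by name but encode intracellular proteins that are not classical receptor ligands. Of these 4, FGF13 was higher and the other three lower in both genotypes, with falls of 1.93 and 2.29 (SE 0.20 each) for FGF14. Among the 9 other ligands, 3 were higher and 3 lower in wild-type cells and 2 higher and 3 lower in knockout cells, with medians of -0.24 and 0.27. FGF1 fell by 1.62 and 1.04 (SE 0.15 each) and FGF2 by 0.50 and 0.65 (SE 0.08 each). PDGFB and PDGFD, both genes of PDGFRB ligands, moved in opposite directions. PDGFB fell by 2.45 (SE 0.52) from 1.09 to 0.204 CPM in wild-type cells and by 2.32 (SE 0.67) from 0.503 to 0.0963 CPM in knockout cells. PDGFD rose by 0.85 (SE 0.11) and 0.66 (SE 0.10). KITLG, the gene of the KIT ligand, rose by 0.97 (SE 0.29) and 1.46 (SE 0.33) from 0.602 and 0.348 CPM. PDGFD was also higher in knockout than in wild-type cells, by 1.07 in DMSO and 0.89 in JQ1 (SE 0.10 each).

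Among 36 other tested receptor tyrosine kinases, 9 were higher and 12 lower with JQ1 in wild-type cells. In knockout cells 9 were higher and 8 lower. The medians were -0.03 in wild-type and 0.08 in knockout cells. Shares over all genes, higher and lower, were 16.9% and 16.2% in wild-type cells and 16.7% and 17.8% in knockout cells. AXL rose from 248 to 469 CPM (log2 0.92, SE 0.08) and from 198 to 398 CPM (1.01, SE 0.08). The collagen receptor gene DDR2 fell by 0.71 and 1.06 (SE 0.07 each). KDR, which lies near KIT and PDGFRA and encodes a VEGF receptor, was lower in knockout than in wild-type cells, by 1.68 in DMSO (SE 0.13, adjusted p = 1.06e-06, edgeR) and 1.04 in JQ1 (SE 0.12, adjusted p = 5.79e-05, edgeR).

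Of 20 tested co-factors of the other member receptors, 8 were higher and 5 lower with JQ1 in wild-type cells. In knockout cells 7 were higher and 7 lower. The medians were 0.05 in wild-type and 0.02 in knockout cells. Shares over all genes, higher and lower, were 16.9% and 16.2% in wild-type cells and 16.7% and 17.8% in knockout cells. IGFBP3, a gene of a binding protein that holds the ligands of IGF1R, fell from 138 to 46.1 CPM (log2 -1.59, SE 0.06) and from 192 to 56.1 CPM (-1.77, SE 0.06). IGFBP7 rose by 0.82 and 0.92 (SE 0.09 each). IRS1, the adaptor docked on IGF1R, fell by 0.59 in wild-type and 0.81 in knockout cells (SE 0.10 each).

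The same lists also held genes that differed between the genotypes; over all tested genes, 3.47% were higher and 4.44% lower in knockout cells in DMSO, and 3.01% and 5.56% in JQ1. In DMSO, 3 of the 36 other receptor tyrosine kinases were higher and 10 lower in knockout cells, among them KDR, EPHA6 (lower by 1.55, SE 0.28) and EPHA3 (higher by 0.47, SE 0.09). Of the 15 genes for MET and its partners, 1 was higher and 4 lower, and of the 20 co-factors 3 were higher and 4 lower. The counts were 1 higher and 2 lower of 9 for HGF activation, 2 and 1 of 14 for the ligands, and 1 and 1 of 26 for the adaptors. HGF, chosen by its values, is in the HGF activation and ligand lists and among their lower genes in DMSO. In JQ1 the counts higher and lower were 2 and 5 for the kinases, 1 and 4 for MET and its partners, and 1 and 2 for the co-factors. They were 1 and 1 for HGF activation, 3 and 0 for the ligands, and 2 and 4 for the adaptors. IGFBP3 was higher in knockout cells by 0.47 in DMSO and 0.28 in JQ1 (SE 0.05 and 0.06).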

How the data were processed

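RNA of 12 A375 libraries was measured by sequencing of rRNA-depleted RNA, with strand-specific library preparation per the labels' protocols. The deposited count table holds estimated counts per gene symbol made by the authors, and a second deposited table holds their normalized signal (counts divided by gene-specific and library-specific factors). The submitters' processing notes name Trim Galore, cutadapt, FastQC, MultiQC, kallisto, DESeq2 and build GRCh38.p10, without roles. Whether the counting used the strand is not given in the sources used here. Some sample titles say untreated where the treatment field says DMSO; the field was followed.

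Here the estimated counts were rounded (the tests were planned for raw counts), filtered with filterByExpr, scaled with TMM (factors 0.9263 to 1.065) and fitted with edgeR 4.0.16 (quasi-likelihood test, limma 3.58.1, R 4.3.3) in 1 model of 4 groups over 12 libraries. Benjamini-Hochberg adjustment ran over all 21698 tested genes, with a threshold of 0.05. SE was taken from the fold change and the F statistic. Log2 CPM used a prior count of 2. The tests were checked on simulated data. Windows around HGF and lengths came from GENCODE release 29, and upstream sequence from RefSeq (GRCh38.p14), where 7 of the 10 members had windows that were used. Of the 5 RefSeq neighbours on each side, 1 of 10 was tested for HGF, and the 2500 kb window was added for that reason.

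The members, the gene lists, the window and the tests were chosen with earlier results of these data known. All members are named; from each list, up to 4 genes per JQ1 comparison and 3 per knockout comparison with the smallest adjusted p and at least 1 CPM qualified for naming; ABCA6 and LAD1 as next in rank, PDGFB, KITLG, FGF11 and FGF12, and the neighbours and markers named, were chosen after their values were seen, as were the list counts without HGF and the split of the ligand list. Alternatives were DESeq2 1.42.0, library totals, RLE factors, no filter, only the groups compared, a replicate block, limma on the authors' signal, an adjusted p of 0.01 and leaving out each library.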

Additional observations from a re-analysis of the deposited data

How the results depend on the processing

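Direction and side of the threshold held in 2212 of the 2328 recomputed log2 fold changes of members and named list genes. A value that received no adjusted p in an alternative was counted as held by its direction alone. The list genes were picked for a small adjusted p, so part of this stability was built in. HGF with JQ1 carries no test, so it was judged by direction and by a shift below the combined replicate SD. The number of members that changed with knockout in DMSO (4) was 1 and 2 with limma on the authors' signal (pseudocounts of 1 and 10), 0 at an adjusted p of 0.01 and 1 to 6 with single libraries left out. In JQ1 (4) it was 2 at an adjusted p of 0.01 and 2 to 4 with single libraries left out. For these the cause was not tested. The JQ1 counts ran from 5 to 6 in wild-type and 4 to 6 in knockout cells with single libraries left out. Replicate numbers did not pair the libraries (same-number correlations from -0.117 to 0.081); with the replicate block the counts were 6, 5, 3, 4 and 0, and SPINT1 in DMSO missed the threshold (adjusted p = 0.0559, edgeR). HGF with JQ1 ranged from -6.02 to -5.28 in wild-type and from -5.92 to -5.03 in knockout cells, and SPINT1 from -3.46 to -1.77 and from -3.39 to -1.16. Sign changes, 31 in all, touched only values that had not passed the test. With library totals, which shifted the median of all genes to -0.16 (wild type) and -0.12 (knockout) with JQ1, MET in knockout cells was at -0.02, KIT at -0.04 and the difference of responses of GAB1 at 0.01. With single libraries left out, KIT with JQ1 in knockout cells ran from -0.10 to 0.29. For knockout against wild type, GAB1 in DMSO was at 0.02 on the authors' signal with either pseudocount, and in JQ1 HGF ran from -0.14 to 0 and FGFR1 from -0.03 to 0.22 with single libraries left out. The difference of responses of SPINT1 was 0.20 and 0.62 on the authors' signal. With single libraries left out this difference ran from -0.98 to 0.30 for SPINT1, from -0.07 to 0.06 for GAB1, from -0.13 to 0.10 for PDGFRA and from -0.12 to 0.03 for IGF1R. Depth limits HGF in JQ1 (9 to 15 counts), SPINT1 in JQ1, KIT and SPINT2.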
